A study of Mus musculus with 2 samples.

Results

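Krt8, Krt18 and Krt19 encode keratins of simple epithelia, Anxa2 encodes the membrane-binding protein annexin A2, and S100a6 encodes a small calcium-binding protein of the S100 family. These 5 genes were taken by symbol from the 55415 features counted in each of 2 single-cell libraries of embryonic stem cells of the mouse (mESC), a self-renewing culture of pluripotent cells. They were chosen by their summed levels in these libraries and in cells classed by 3 sets of marker transcripts, known from earlier results, so every difference below is a description and none is tested. The cells carried GFP driven by the promoter of the endogenous retrovirus MERVL, which is transcribed in the 2-cell embryo and in a 2C-like state that embryonic stem cells enter at times, and an H2B-mIFP label for following cells. The study followed what becomes of 2C-like cells, and the groups here were a library labelled MERVL GFP positive and a library labelled MERVL GFP negative, both from mESC carrying both constructs. The labels do not say how cells were separated by the reporter. Each group had 1 library, given in the labels as its own batch, so group, library and batch cannot be told apart.

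Keratins are obligate heteropolymers. A type II keratin such as keratin 8 pairs with a type I keratin such as keratin 18 or keratin 19 to form intermediate filaments, which anchor at desmosomes and carry mechanical load. Krt8 and Krt18 are the first keratins of the mouse embryo, where they mark trophectoderm and later the extraembryonic endoderm, while the inner cell mass holds little of either. Annexin A2 forms a complex with S100a10 at membranes and is found in many epithelial and migrating cells.

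Krt8 and Krt18 are neighbours on chromosome 15 (build mm10, GENCODE M21). Krt8 lies on the minus strand at chr15:101996698-102004482 and Krt18 on the plus strand at chr15:102028180-102032027, with 23697 bases and no annotated gene between them. Krt19 lies at chr11:100140810-100148665 on the minus strand, Anxa2 at chr9:69453620-69491795 on the plus strand, and S100a6 at chr3:90612882-90624181 on the plus strand. All are protein-coding genes. Reads could be split with the processed pseudogenes Krt8-ps, 98.6% identical to a Krt8 transcript over 941 bases, and Gm5200, 90.5% identical to Krt18 over 1267 bases, but these had 4 UMIs each in the positive library and 1 and 0 in the negative library (a UMI is 1 counted molecule). The antisense gene Gm16144, which overlaps Anxa2, had 1 UMI in all, and whether counting used strand is not given in the sources used here.

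The 250 bases before the RefSeq transcription start are shown for Krt8 and Krt18, the members with the highest correlation over all cells of each library, and for Anxa2, which went with hypoxia transcripts (RefSeq sequences, GRCm38.p6, each written along its gene's strand). Capitals mark the motif letters that were found. The windows are chr15:102004343-102004592 for Krt8, chr15:102027966-102028215 for Krt18 and chr9:69453433-69453682 for Anxa2; GENCODE places the outer ends of all 3 genes inside these windows.
Krt8: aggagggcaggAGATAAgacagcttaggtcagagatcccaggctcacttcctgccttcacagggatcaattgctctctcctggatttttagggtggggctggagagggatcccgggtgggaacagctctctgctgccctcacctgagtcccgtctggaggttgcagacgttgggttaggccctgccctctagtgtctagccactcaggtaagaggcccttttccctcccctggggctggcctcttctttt
Krt18: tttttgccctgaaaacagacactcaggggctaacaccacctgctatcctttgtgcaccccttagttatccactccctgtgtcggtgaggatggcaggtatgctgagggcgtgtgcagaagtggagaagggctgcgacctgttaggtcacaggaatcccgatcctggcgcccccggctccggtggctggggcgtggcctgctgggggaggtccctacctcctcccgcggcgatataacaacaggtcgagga
Anxa2: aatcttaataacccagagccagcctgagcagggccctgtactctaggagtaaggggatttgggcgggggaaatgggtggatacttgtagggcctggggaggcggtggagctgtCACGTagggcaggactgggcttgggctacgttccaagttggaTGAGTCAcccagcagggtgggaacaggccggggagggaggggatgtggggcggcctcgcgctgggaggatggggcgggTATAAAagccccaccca
Both strands were searched for 5 motifs. The letters were TGANTCA for AP-1, and GGAATG was used for TEAD. For GATA factors they were AGATAA, and the hypoxia response element was searched as ACGTG. The box bound by the general transcription factor TBP was searched as TATAAA. Krt8 held AGATAA from 239 to 234 bases before its start, a match present in 9.99% of the 32851 promoter windows of this length. Anxa2 held ACGTG on the opposite strand (137 to 133 bases before the start, 16.6% of windows), the AP-1 letters (95 to 89, 6.75%) and the TBP letters (17 to 12, 12.4%). No set matched in the Krt18 window, and none in that of S100a6. A match is a run of letters and not a binding site, and these data hold no measurement of binding.

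The positive library held 4603 cells and 138364094 UMIs, and the negative library 3832 cells and 156406894 UMIs. After a filter on cells, 4596 and 3832 remained, with medians of 29554.5 and 39099.5 UMIs per cell. The libraries shared 3 cell barcodes. Levels are given as CPM, the gene's UMIs summed over cells per 1000000 UMIs of all genes, with exact Poisson intervals at 95% that cover counting error only. Shares of cells come from cells thinned to 10000 UMIs (4402 and 3824 cells, with 194 and 8 shallower cells left out), with exact binomial intervals at 95%. No cell type that should lack these transcripts was found in the data, so the part of free RNA in the shares was not measured. All 14 pluripotency markers were detected in both libraries (summed 16130.2 and 15556.9 CPM). Of markers of other cells, the 12 fibroblast genes summed to 18.9 and 8.32 CPM, the 7 blood genes to 15.5 and 11.5 CPM with Ptprc at 0 in the negative library, and the 13 trophoblast genes to 57.3 and 62.7 CPM with Prl3d1 at 0 in both. Their part in the results was not tested.

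Krt8 and Krt18 were each over 4 times as high in the positive library. Krt8 had 31.7 CPM in the positive library (30.8 to 32.7) and 7.74 CPM in the negative library (7.31 to 8.19), a ratio of 4.10 (exact conditional interval 3.85 to 4.37). Krt18 had 36.7 CPM (35.7 to 37.7) against 8.13 CPM (7.69 to 8.59), a ratio of 4.51 (4.24 to 4.804). A difference is called past the fold below at a ratio of at least 2 between values of CPM + 1, with at least 10 CPM on either side and 50 UMIs in all. A gene under 10 CPM on one side enters through the other side alone and could be called in that direction only. By that rule 2 of the 5 genes were higher in the positive library and 0 were lower, where 7.01% of the 8042 genes with enough UMIs were higher and 0.995% were lower. Both called genes, Krt8 and Krt18, were under 10 CPM in the negative library and entered through the positive one, and of the 2 members at 10 CPM in both libraries, Anxa2 and S100a6, 0 were called. Krt19, the other type I keratin of the set, had 1.71 CPM (1.496 to 1.94) in the positive and 3.55 CPM (3.27 to 3.86) in the negative library, below the level needed for a call. Anxa2 had 21.9 CPM (21.1 to 22.7) against 17.1 CPM (16.5 to 17.8), and S100a6 had 63.8 CPM (62.4 to 65.1) against 68.2 CPM (67.0 to 69.5). Scaling moved these values: the median log2 ratio of all tested genes was 0.14 in CPM and -0.16 with median-of-ratios scaling. The log2 ratio of Anxa2 was 0.34 in CPM and 0.06 with that scaling, and that of S100a6 was -0.10 and -0.38. Krt8 had log2 ratios of 1.90 and 1.63 under the same 2 scalings, and Krt18 2.05 and 1.77.

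Of other intermediate filament genes 0 of 5 were past the fold, and of desmosome and filament linker genes 0 of 7. Of annexins 1 of 6 was past it (Anxa3, 19.3 against 7.35 CPM), and 0 of the 5 at 10 CPM in both libraries. The S100 list, which also holds S100pbp, a gene outside the S100 family, gave 1 of 4 (S100a13, 23.1 against 10.1 CPM). Epithelial junction genes gave 2 of 7, Cldn6 (10.7 against 3.47 CPM) and Cgn (17.5 against 7.07 CPM), which encode tight junction proteins. Both of these entered through the positive library alone, and 0 of the 5 junction genes at 10 CPM in both were past the fold. The list of YAP and TEAD targets also holds Tead1 and Tead4, which encode TEAD factors. Of its genes 2 of 7 were higher, Ccn2 (31.3 against 10.8 CPM) and Crim1 (12.3 against 3.12 CPM), and 1 of the 4 at 10 CPM in both. Primitive endoderm genes were higher for 8 of 13 tested (7 of the 11 with at least 10 CPM in both libraries), Dab2 most (82.6 against 20.5 CPM), and none of these lists had a gene past the fold downward.

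**Figure D1:**
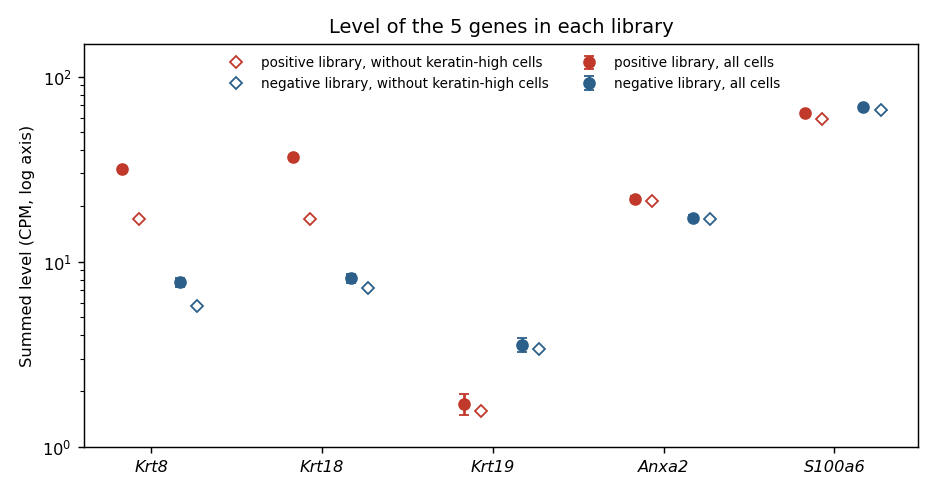
Level of the 5 genes in each library as CPM on a log axis. Filled points are all cells with exact Poisson intervals at 95%, and open diamonds are the same libraries without cells of 10 or more thinned Krt8 and Krt18 UMIs. Krt8 and Krt18 sit above their negative-library points with and without those cells, while Anxa2 and S100a6 lie close together.

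The keratin transcripts were unevenly spread, with much of them in few cells. A Krt8 UMI was found in 13.3% of the positive cells after thinning (12.3 to 14.3), against 4.89% in the negative library (4.23 to 5.62), and a Krt18 UMI in 13.6% (12.6 to 14.7) and 7.19% (6.39 to 8.06). Without thinning the Krt8 shares were 26.1% and 15.7% and the Krt18 shares 28.0% and 22.8%. The 10 cells with most Krt8 held 36.7% of all Krt8 UMIs of the positive library and 30.8% of those of the negative library. For Krt18 the same figures were 38.7% and 14.4%, and for Anxa2 4.26% and 5.52%. S100a6 was the most widely detected of the 5, in 36.1% and 41.6% of thinned cells.

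Cells with 10 or more summed Krt8 and Krt18 UMIs of 10000 are called keratin-high below. This limit was set after the values were seen, and it marks a range of values, not a cell type. There were 36 such cells of 4402 in the positive library (0.818%, 0.573 to 1.13) and 5 of 3824 in the negative library (0.131%, 0.0425 to 0.305). The highest cells had 317 and 56 keratin UMIs of 10000. In the positive library 11 cells lay just outside the limit, at 8 to 9 UMIs, and 7 just inside it, at 10 to 12, so it falls in a continuous tail there, while the negative library had 2 and 0 such cells. Keratin-high cells held 47.1% of Krt8 and 54.6% of Krt18 UMIs of the positive library, and 25.7% and 11.2% of those of the negative library. Left without them, Krt8 had 17.02 against 5.75 CPM (log2 ratio 1.42) and Krt18 16.9 against 7.23 CPM (1.12), both still past the fold. Without all cells of 5 or more keratin UMIs the log2 ratios were 1.30 and 0.87, and Krt18 was no longer past the fold.

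**Figure D2:**
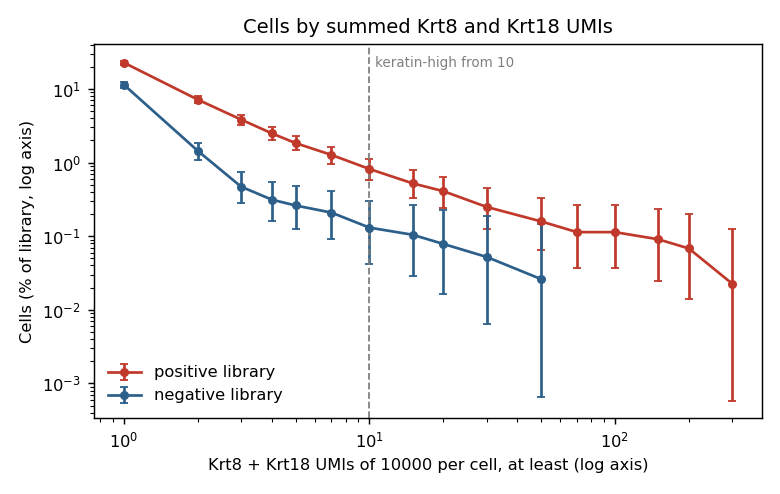
Share of cells, on a log axis, with at least the given number of summed Krt8 and Krt18 UMIs after thinning to 10000 UMIs per cell, with exact binomial intervals at 95%. The positive library lies above the negative library at each number of UMIs plotted, the positive-library tail runs without a gap across the limit of 10, and no negative-library cell reaches 70 UMIs.

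Cells were next ordered by Gata6 and Dab2, a transcription factor and an endocytic adaptor of primitive endoderm, whose thinned UMIs were summed into classes of 0, 1 to 2, 3 to 9 and 10 or more. Cells of 3 or more are called endoderm-high: 489 of 4402 in the positive library (11.1%, 10.2 to 12.1) and 219 of 3824 in the negative library (5.73%, 5.01 to 6.51). Krt8 was the gene of the 5 that went with these transcripts most in both libraries. In the positive library Krt8 had 21.6, 31.7, 119 and 78.2 CPM over the 4 classes, and cells of the negative library had 5.81, 5.77, 35.6 and 41.7 CPM. The positive-library peak at 3 to 9 rests on 5 keratin-high cells. Without keratin-high cells the 4 classes had 9.70, 18.4, 55.7 (50.7 to 61.1) and 72.4 CPM (66.4 to 78.9) of Krt8. The classes of 3 or more stood above the others in both libraries, with no further step between them in the negative library, where the intervals (30.5 to 41.1 and 35.8 to 48.4) overlap. The share of cells with a Krt8 UMI was 9.48%, 13.7%, 36.4% and 39.8% for the positive library, against 3.77%, 5.56%, 23.7% and 18.8% for the negative.

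Endoderm-high cells against cells at 0 had 99.6 against 21.6 CPM of Krt8 in the positive library (ratio 4.61, 4.32 to 4.93) and 38.4 against 5.81 CPM in the negative library (6.60, 5.81 to 7.49). Krt18 had 90.9 against 28.9 CPM (3.15, 2.95 to 3.36) and 17.7 against 7.45 CPM (2.38, 2.00 to 2.81). These 2 genes were past the fold upward in each library and none of the 5 was past it downward. Both were under 10 CPM in negative-library cells at 0, where they could only be called higher, and 0 of the 2 members at 10 CPM on both sides were called; in the positive library all 4 members tested were at that level on both sides. With cells classed by Gata6 alone, Krt18 was not past the fold in the positive library (48.2 against 34.6 CPM, log2 ratio 0.47 in place of 1.62). Among cells at 0 for hypoxia transcripts it was not past it in the negative library (15.1 against 7.27 CPM, 0.97 in place of 1.15). Among all genes tested, 5.57% were higher and 5.27% lower in the positive library, and 5.98% higher and 3.50% lower in the negative library. Median depth in UMIs per cell differed by little between the classes (30505 at 0 and 29637 at 3 to 9 in the positive library, against 39209 and 39225 in the other). The ratios were as large without keratin-high cells: Krt8 had 63.6 against 9.70 CPM (log2 ratio 2.59) and Krt18 45.4 against 12.2 CPM (1.81) in the positive library. In the negative library none of the 5 keratin-high cells was endoderm-high, and the log2 ratios without them were 3.11 and 1.34.

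The balance between the keratins also differed along this order. Krt8 made up 43.8% of the summed Krt8 and Krt18 UMIs in negative-library cells at 0 (41.5 to 46.1), 39.9% at 1 to 2 (31.6 to 48.5), 71.1% at 3 to 9 (65.1 to 76.6) and 65.8% at 10 or more (59.7 to 71.5). In the positive library the values were 42.8% (41.4 to 44.2), 46.6% (43.9 to 49.3), 50.5% (48.3 to 52.8) and 55.7% (52.6 to 58.7). Leaving out keratin-high cells, the span was 35.6% to 71.1% in the negative library and 44.3% to 58.6% in the positive library. Endoderm-high cells of both libraries thus held more Krt8 per Krt18 than cells at 0. Their own keratin levels still differed between libraries, since Krt8 in endoderm-high cells was 63.6 CPM in the positive library without keratin-high cells and 38.4 CPM in the negative library. In cells at 0 on this order, also without keratin-high cells, Krt8 was 9.70 and 3.55 CPM and Krt18 12.2 and 6.42 CPM.

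Krt19 was too low for a call, at 2.64 against 1.59 CPM in the positive (ratio 1.66) and 4.75 against 3.42 CPM in the negative library (1.39). Anxa2 was higher by less than the fold, at 31.1 against 20.1 CPM (log2 ratio 0.61) and 28.4 against 16.4 CPM (0.76). Among cells at 0 for the hypoxia transcripts described below, Anxa2 was past the fold in the negative library (24.8 against 6.48 CPM, 1.79) and not in the positive (25.7 against 14.1 CPM, 0.82). S100a10, which encodes the protein partner of annexin A2, was past the fold in both libraries at 419 against 197 CPM (1.09) and 395 against 194 CPM (1.02). S100a6 was lower in endoderm-high cells, at 47.3 against 67.8 CPM (-0.51) and 50.2 against 68.6 CPM (-0.44), again by less than the fold. S100a10 was thus above and S100a6 below its level in cells at 0, in the same cells.

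Genes of related families were counted from lists. Of 6 annexins tested besides Anxa2, Anxa5 was higher (57.9 against 15.9 CPM in the positive and 40.2 against 10.4 CPM in the negative library) and Anxa11 lower (14.9 against 30.9 and 13.5 against 30.5 CPM), and the other 4 were not past the fold in either library. Of 5 other intermediate filament genes, Lmna, a nuclear lamin, was higher in both (89.4 against 20.02 and 82.4 against 24.3 CPM), and vimentin (Vim) was past the fold in the positive library and not in the negative (460 against 185 and 345 against 204 CPM), a difference between libraries that was not tested. Desmosome and filament linker genes gave 0 of 7 past the fold in the positive library and 1 of 6 in the negative, Dsg2, a desmosomal cadherin, at 56.6 against 20.5 CPM. Epithelial junction genes gave 0 of 7 and 0 of 5. Of the YAP and TEAD list, which counts Tead1 and Tead4 too, 3 of 8 were higher and 1 lower in the positive library and 4 of 7 higher in the negative. Amotl2 was among them, at 99.5 against 32.5 and 62.7 against 19.4 CPM. Of the 4 genes of that list with at least 10 CPM on both sides in the negative library, 1 was higher. Most primitive endoderm genes reached 10 CPM in endoderm-high cells alone and could only be called higher (8 of 15 tested in the positive library and 10 of 16 in the negative); the 7 and 6 at that level on both sides were all higher. Pluripotency genes were lower for 9 of 14 and 8 of 14, with 1 higher in each library.

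**Figure D3:**
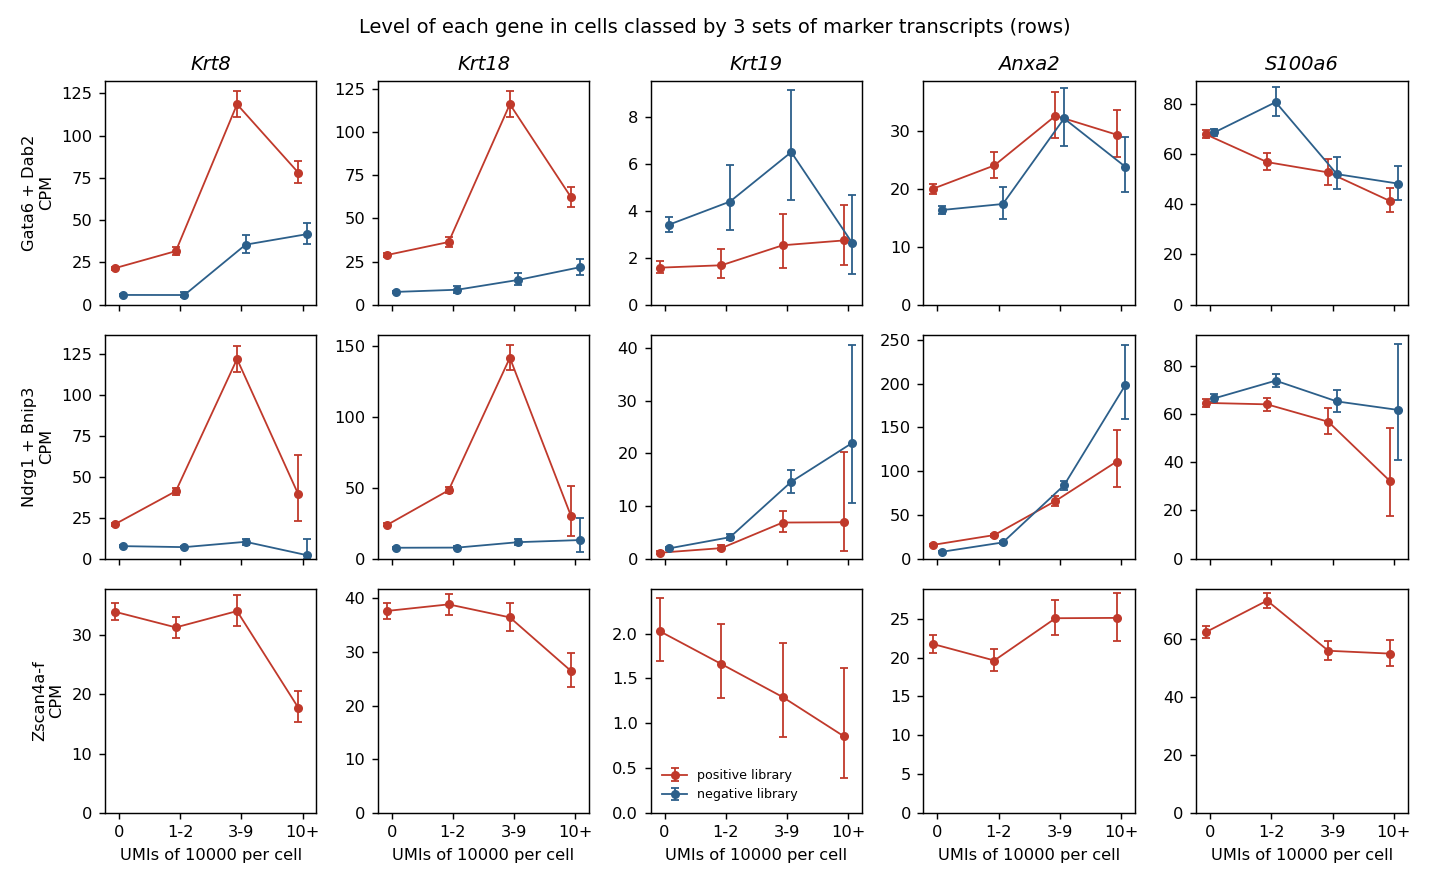
Level of each gene (columns, CPM with exact Poisson intervals at 95%) in cells classed by summed thinned UMIs of Gata6 and Dab2, of Ndrg1 and Bnip3, and of Zscan4a to Zscan4f (rows). All cells are used. Zscan4 classes are drawn for the positive library alone, because 9 negative-library cells had a Zscan4 UMI. Krt8 stands higher from 3 endoderm UMIs on and Anxa2 climbs over every hypoxia class. The positive-library peaks of Krt8 and Krt18 at 3 to 9 UMIs rest on 5 keratin-high cells in the endoderm row and on 8 in the hypoxia row.

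Ndrg1 and Bnip3, which are induced in cells short of oxygen, gave the other order. Hypoxia-high cells (3 or more thinned UMIs) numbered 289 in the positive library (6.57%, 5.85 to 7.34) and 347 in the negative library (9.07%, 8.18 to 10.03). Anxa2 went with these transcripts in both libraries. Its level over the classes of 0, 1 to 2, 3 to 9 and 10 or more was 15.9, 27.1, 66.0 and 111 CPM in the positive library and 7.93, 18.7, 83.9 and 198 CPM in the negative library. The intervals of neighbouring classes do not overlap in either library. The share of cells with an Anxa2 UMI was 14.1%, 21.1%, 35.8% and 72.2% in the positive and 6.79%, 15.6%, 47.4% and 78.6% in the negative library, where the top classes held 18 and 14 cells. Median depth per cell was lower in the upper classes (31078.5 UMIs at 0 and 26572 at 3 to 9 in the positive library, against 39709 and 35507 in the other).

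Hypoxia-high cells against cells at 0 had 68.4 against 15.9 CPM of Anxa2 in the positive library (ratio 4.31, 3.90 to 4.76) and 88.0 against 7.93 CPM in the negative library (11.1, 10.1 to 12.2). Krt19 had 6.88 against 1.16 CPM (5.95, 4.22 to 8.32) in the positive library, too low for a call, and 14.9 against 1.97 CPM (7.56, 6.17 to 9.26) in the negative library. Krt8 had 117 against 20.95 CPM (5.60, 5.17 to 6.05) in the positive library but 10.05 against 7.70 CPM (1.31, 1.07 to 1.58) in the negative library. Krt18 had 136 against 24.0 CPM (5.66, 5.26 to 6.08) and 11.8 against 7.79 CPM (1.51, 1.26 to 1.81). S100a6 had 55.4 against 64.5 CPM and 65.0 against 66.4 CPM, the flattest of the 5 on this order. By the fold rule 3 of the 5 genes were higher in the positive library (Krt8, Krt18 and Anxa2) and 2 in the negative library (Krt19 and Anxa2), against 0.917% and 0.947% of all genes tested. None was past the fold downward, against 0.208% and 0.216%. In the positive library the 4 members tested had 10 CPM on both sides. Of the 5 tested in the negative library, 4 reached it in hypoxia-high cells alone, Krt19 and Anxa2 among them, and S100a6, the 1 at that level on both sides, was not called.

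The keratin difference in the positive library rested on 8 keratin-high cells among the 289 hypoxia-high cells. Without keratin-high cells Krt8 had 21.01 against 16.2 CPM (log2 ratio 0.35) and Krt18 23.8 against 15.4 CPM (0.60), neither past the fold. When cells were classed after thinning to 5000 UMIs the log2 ratios were -0.49 and -0.60, so no direction is read from the Krt8 and Krt18 ratios on this order. Anxa2 was close to its full value without keratin-high cells (63.8 against 15.6 CPM and 88.4 against 7.87 CPM), as was Krt19 (6.32 against 1.02 and 14.8 against 1.74 CPM). The share of cells with a Krt19 UMI in the negative library was 1.76% at 0 and 12.01% at 3 to 9 hypoxia UMIs.

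Primitive endoderm genes were lower in the same cells, for 7 of 13 tested in the negative library (Dab2 6.88 against 23.1 CPM, Gata6 20.02 against 48.2 CPM) and for 1 of 13 in the positive (Dab2, 35.9 against 87.2 CPM), with none higher. Of the 8 genes with at least 10 CPM on both sides in the negative library 3 were lower, and the other 4 of the 7, Dab2 among them, could only be called lower. The whole list summed to 293 against 550 CPM and to 892 against 1210.3 CPM, and its part in the results was not tested. Few relatives of the members were past the fold beside Anxa2 and Krt19. None of 6 other annexins in the positive and 5 in the negative library was past the fold; Anxa5 came nearest in log2 ratio, at 0.67 and 0.66. S100a10 had 191 against 223 CPM and 179 against 210 CPM, so the gene of the annexin A2 partner lay slightly lower where Anxa2 lay higher. None of 4 genes of the S100 list (S100pbp among them), 6 and 6 desmosome and linker genes, or 7 and 5 junction genes passed the fold in the 2 libraries. Krt23 was the only other simple epithelial keratin with enough UMIs, in the positive library alone (13.6 against 3.60 CPM, log2 ratio 1.67). It was past the fold, but it reached 10 CPM in hypoxia-high cells alone and could only be called higher. Of the 14 hypoxia genes, apart from the axis genes, with at least 10 CPM on both sides, 9 and 8 were higher in the 2 libraries. The largest ratio of the list was that of Egln3, an oxygen-sensing hydroxylase, at 46.7 against 6.44 and 45.3 against 5.12 CPM. Immediate early and AP-1 genes were higher for 2 of 7 and 5 of 8 tested, with Jun at 56.3 against 27.1 and 26.0 against 7.30 CPM, and for 1 of 4 and 2 of 5 of those at 10 CPM on both sides.

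Cells were also compared on both orders at once. Without keratin-high cells, negative-library cells high for endoderm and at 0 for hypoxia (166 cells) had 36.6 CPM of Krt8 (32.3 to 41.4) and 24.8 CPM of Anxa2 (21.2 to 28.8). Cells high for hypoxia and at 0 for endoderm (316 cells) had 3.66 CPM of Krt8 (2.63 to 4.94) and 89.5 CPM of Anxa2 (84.2 to 95.2). Cells at 0 for both (2171 cells) had 3.68 CPM of Krt8 and 6.41 CPM of Anxa2. Krt8 differed between the last 2 sets by less than its counting intervals. Anxa2 was highest in hypoxia-high cells, and it was also higher in endoderm-high cells than in cells at 0 for both. The positive library gave 62.2, 12.3 and 9.21 CPM of Krt8 and 25.5, 61.1 and 13.8 CPM of Anxa2 for the same 3 sets (340, 209 and 2128 cells). Krt19 in the negative library was 2.89 CPM in endoderm-high, 14.01 CPM in hypoxia-high and 1.65 CPM in the cells at 0 for both. Cells high for both were few (21 and 8), and with 23 positive-library cells including 2 keratin-high cells Krt8 was 706 CPM, against 55.1 CPM without these 2 cells.

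**Figure D4:**
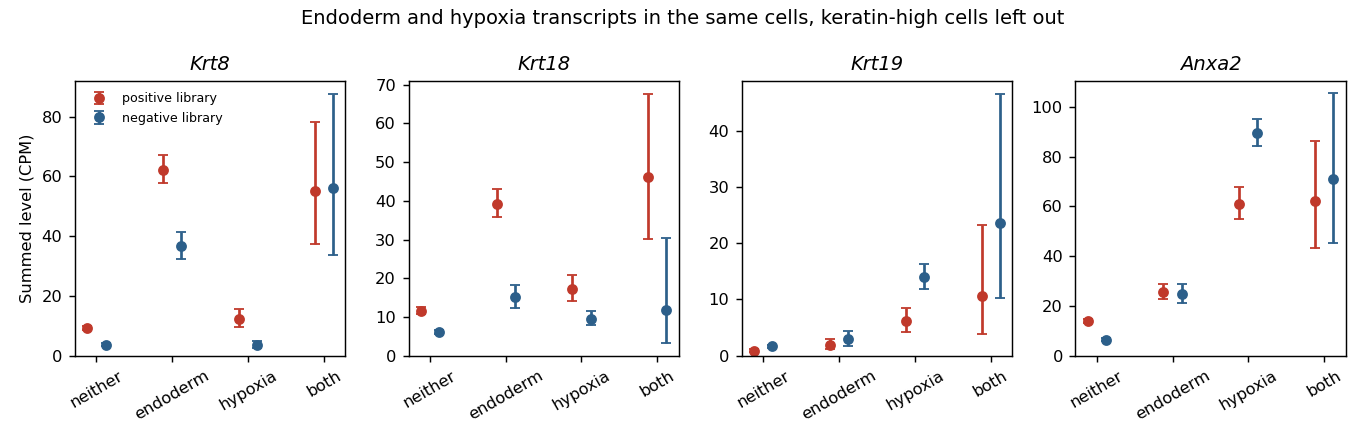
Level of Krt8, Krt18, Krt19 and Anxa2 (CPM with exact Poisson intervals at 95%) in cells at 0 for both sets of marker transcripts, high for endoderm alone, high for hypoxia alone, or high for both, without keratin-high cells. Krt8 is high with endoderm transcripts in both libraries, Krt19 and Anxa2 are highest with hypoxia transcripts, and Anxa2 is also above its lowest level with endoderm transcripts alone.

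Zscan4 transcripts mark the 2C-like state and were counted over Zscan4a to Zscan4f. In the positive library 1201 cells were Zscan4-high (3 or more thinned UMIs, 27.3%) and 1965 were at 0. In the negative library 9 cells had any Zscan4 UMI after thinning, too few to compare. Krt8 had 28.4 CPM in Zscan4-high cells (26.6 to 30.4) against 33.9 CPM in cells at 0 (32.5 to 35.4), and Krt18 had 33.0 against 37.7 CPM. Krt19 had 1.14 against 2.02 CPM, Anxa2 25.1 against 21.8 CPM and S100a6 55.5 against 62.2 CPM. None of the 5 genes was past the fold in either direction, where 6.33% of the 8246 genes tested were higher and 1.81% lower. Krt19 was too low for a call in either direction. The small keratin differences changed direction without keratin-high cells, to 18.3 against 16.4 CPM of Krt8 (log2 ratio 0.15) and 20.5 against 15.4 CPM of Krt18 (0.39). Median depth fell from 33065 UMIs per cell at 0 to 20171 at 10 or more Zscan4 UMIs.

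Cells with both endoderm and Zscan4 transcripts had keratin levels near those of other endoderm-high cells. The 107 positive-library cells high for both had 50.5 CPM of Krt8 (42.5 to 59.5) and 39.1 CPM of Krt18 (32.2 to 47.2), and held no keratin-high cell. Endoderm-high cells at 0 for Zscan4 had, without keratin-high cells, 61.4 CPM of Krt8 (56.3 to 66.9) and 42.6 CPM of Krt18 (38.3 to 47.2). Zscan4-high cells at 0 for endoderm had 12.2 and 16.8 CPM, and cells at 0 for both 8.74 and 10.7 CPM. Krt8 and Krt18 thus stood higher in endoderm-high cells both with and without Zscan4 transcripts. On the Zscan4 order 0 of 6 annexins and 0 of 4 genes of the S100 list (S100pbp among them) were past the fold. The same held for 0 of 6 desmosome and linker genes, 0 of 7 junction genes and 0 of 7 genes of the YAP and TEAD list. Other lists did hold genes past it. Pluripotency genes were lower for 4 of 14, among them Zfp42 (477 against 1085 CPM) and Utf1 (85.1 against 205 CPM), primitive endoderm genes for 1 of 13 (Gata6, 29.2 against 78.4 CPM) and trophoblast genes for 1 of 2 (Tfap2c, 8.61 against 23.01 CPM). Tfap2c reached 10 CPM in cells at 0 alone and could only be called lower. Of immediate early and AP-1 genes 1 of 7 was higher (Jun, 65.7 against 20.1 CPM). Of 8 2C genes tested, 5 reached 10 CPM in Zscan4-high cells alone and could only be called higher, and the other 3 were higher.

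Keratin-high cells themselves were described by their other transcripts, named after the values were seen. Of the 36 in the positive library, 7 were endoderm-high, 8 hypoxia-high, 6 Zscan4-high and 21 were none of these, and their median depth was 31739 UMIs against 30161 in other cells, with 1 above 2 times the library median. The 5 of the negative library included 1 hypoxia-high cell and no endoderm-high cell. S100a6 had 613 CPM in positive-library keratin-high cells (569 to 660) against 59.2 CPM in other cells, and 1628 CPM (1461 to 1810) against 66.1 CPM in the negative library. Krt19 had 20.1 against 1.56 CPM and 123 against 3.395 CPM, and Krt7, another keratin of simple epithelium, had 23.6 against 0.834 CPM and 218 against 0.634 CPM. Krt19 and Krt7 were under 10 CPM in other cells of both libraries, so they could only come out higher. Anxa2 had 100.3 against 21.2 CPM and 47.3 against 17.1 CPM. A S100a6 UMI was found in 20 of the 36 cells, 1 of which held 150 S100a6 UMIs of its 10000, and in 5 of the 5. In the negative library the Anxa2 level rests on 10 UMIs, with an Anxa2 UMI after thinning in 1 of the 5 cells. Single cells carried much of these levels. For S100a6, 1 cell held 56.2% of the UMIs of the 36 cells and 1 cell 57.8% of those of the 5, and without it the levels were 275 CPM (245 to 308) and 900.5 CPM (760 to 1060). Krt19 without its top cell had 16.9 and 54.9 CPM, Krt7 9.81 and 139.5 CPM, and Anxa2 82.01 CPM in the positive library, all above other cells. Anxa2 in the negative library had 27.4 CPM without its top cell, with an interval (8.91 to 64.05) that holds the level of other cells.

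Further genes of keratin-high cells included H19, an imprinted noncoding RNA, at 347 against 18.4 CPM in the positive and 1226 against 6.09 CPM in the negative library. The X-linked homeobox genes Rhox6 (134 against 3.43 and 786 against 2.32 CPM) and Rhox9 (64.6 against 4.26 and 663 against 2.25 CPM) and the transcription factor Ascl2 (135 against 10.96 and 289 against 7.15 CPM) were also high. Rhox6 and Rhox9 in both libraries, and H19 and Ascl2 in the negative library, were under 10 CPM in other cells. There they entered through keratin-high cells alone and could only come out higher. A UMI of H19 was present in 16 of 36 and 4 of 5 cells, of Ascl2 in 15 of 36 and 4 of 5, and of Rhox6 in 7 of 36 and 2 of 5. In each library 1 cell held most of the Rhox6 UMIs (85.6% and 95.2%) and of the Rhox9 UMIs (51 of 74 and 126 of 140), without which Rhox6 had 19.6 and 43.9 CPM and Rhox9 20.5 and 76.8 CPM. Without its top cell H19 had 258 and 1093 CPM and Ascl2 81.8 and 137 CPM. The trophoblast list summed to 387 CPM against 54.6 CPM in the positive library and to 1155 against 61.3 CPM in the negative, and 14 of 36 and 4 of 5 cells lay above the 95th percentile of other cells on it. That percentile was 200 CPM in both libraries. The median keratin-high cell had 200 and 600 CPM of the list, and the median of other cells was 0 in both. The highest keratin-high cells had 2200 and 4100 CPM. Krt7 is a member of that list. Other lists passed their own 95th percentile of other cells about as often in the positive library. These were the other annexins with 15 of 36 cells (summed 369 against 151 CPM), the S100 list with 13 (964 against 482 CPM) and epithelial junctions with 10 (761 against 351 CPM). These 3 lists gave 1, 1 and 2 of the 5 negative-library cells. Cdx2 and Elf5, defining members of the trophoblast list, had 3 and 1 UMIs in the 36 cells and 2 and 0 UMIs in the 5 cells. Nanog was lower, at 48.9 against 415 CPM and 47.3 against 192 CPM, and the summed pluripotency list had 7207 against 16260.0 CPM and 14276 against 15560 CPM. In the negative library 1 of the 5 cells had 32300.0 CPM of that list, and the median was 7500.0 CPM per keratin-high cell against 15200.0 CPM per other cell (5550.0 against 14900.0 CPM in the positive library). Among 8610 genes tested in the positive library 7.08% were higher and 3.19% lower in keratin-high cells. Among 7939 in the negative library 14.7% were higher and 11.6% lower. No conclusion is drawn from these shares, because 36 and 5 cells are fewer than in any high class to which the fold rule was applied above. In the 5 cells 10 UMIs of Nanog gave 47.3 CPM, so a gene near 10 CPM there rests on few UMIs. The part of counting error in these shares was not tested. The fibroblast list was at 19.2 against 18.9 CPM in the positive library and at 0 UMIs in the negative library, and Ptprc was at 0 in both sets of keratin-high cells. What part any other cell type has in these cells was not tested.

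**Figure D5:**
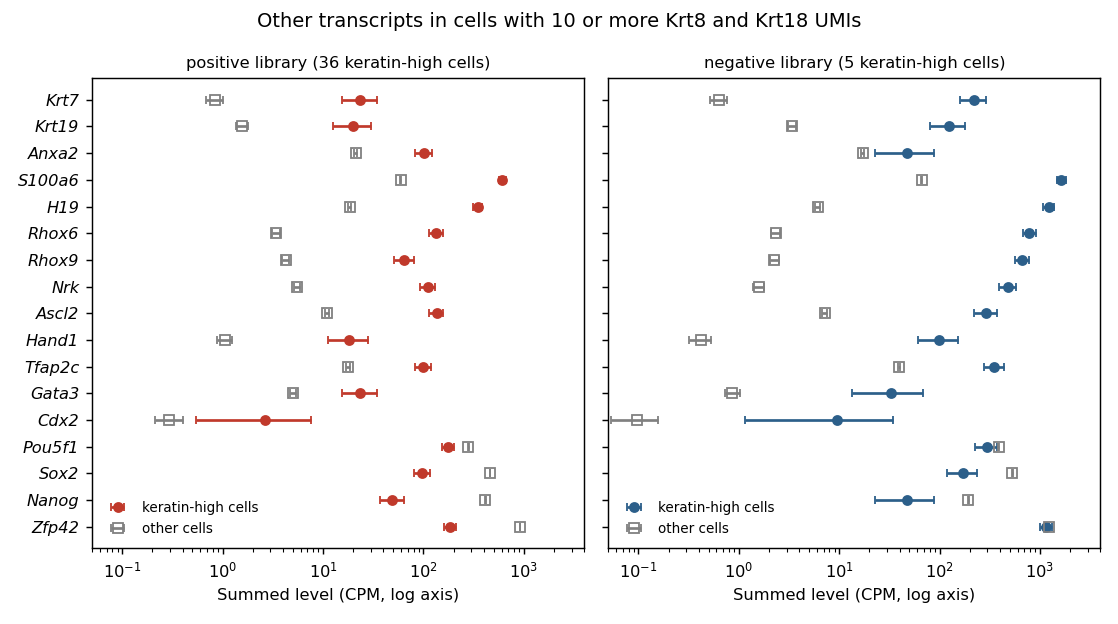
Summed level (CPM on a log axis, exact Poisson intervals at 95%) of 17 transcripts in keratin-high cells (filled) and in other cells (open squares) of each library. H19, Rhox6, Rhox9, Nrk, Ascl2 and S100a6 lie to the right in keratin-high cells and Nanog to the left; Cdx2 rests on 3 and 2 UMIs.

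Within cells Krt8 and Krt18 were the most closely linked members in the positive library. The correlation of log2(thinned UMIs + 1) between Krt8 and Krt18 was 0.52 over 4402 positive-library cells and 0.26 over 3824 negative-library cells, and 0.24 and 0.09 without keratin-high cells. A Krt18 UMI was found in 31.5% of positive-library cells with a Krt8 UMI (27.7 to 35.4) and in 10.9% of those without (9.93 to 11.9). In the negative library the shares were 14.4% (9.74 to 20.3) and 6.82% (6.02 to 7.69). An Anxa2 UMI was found in 39.5% of positive-library cells with a Krt19 UMI (28.8 to 51.0) against 17.2% without, and in 36.2% (27.5 to 45.6) against 12.1% in the negative library. The correlations of Anxa2 with Krt8, Krt18 and Krt19 were 0.13, 0.09 and 0.11 in the positive library and 0.05, 0.09 and 0.18 in the negative library, and without keratin-high cells 0.10, 0.05 and 0.09, and 0.05, 0.09 and 0.18. An Anxa2 UMI was thus also more frequent in cells with a Krt8 UMI (26.5% against 16.2% without, and 20.9% against 12.4%) and in cells with a Krt18 UMI (22.7% against 16.8%, and 21.8% against 12.1%). S100a6 stood apart from the other genes, with correlations of at most 0.05 with each of them once keratin-high cells were left out. Cells of 1 library share its depth and handling, so these values describe the libraries, and at such sparse counts they are weak.

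Genes were ranked by the lower of their 2 library correlations with each member, among 6832 genes with at least 10 CPM in both libraries. Those most like the sum of Krt8 and Krt18 were Fbp2, Lamb1, Col4a1, Srgn and Col4a2 (0.17 to 0.22), of which Lamb1, Col4a1 and Col4a2 encode basement membrane proteins. The genes most like Anxa2 were Bnip3, Ndufa4l2, Bsg, Tpi1 and Pgk1 (0.12 to 0.19 in the positive and 0.20 to 0.38 in the negative library), with Tpi1 and Pgk1 encoding glycolytic enzymes. Krt19 was nearest to Anxa2, Ndufa4l2, Bnip3, Slc16a3 and P4ha1 (0.08 to 0.18). No gene exceeded 0.10 with S100a6 in both libraries.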

How the data were processed

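Single-cell transcriptomes of mESC were deposited by the authors as whole-number counts per gene and cell, 1 sparse matrix per library, with no normalization. Per the submitters' processing notes, FastQC 0.11.2, Trim Galore 0.6.4, STAR 2.7.6a and build mm10 were used, with no role or order; annotation, cell calling and molecule counting are not given in the sources used here. They are taken for molecule counts (UMIs), as every cell carries a 16-base barcode; the labels do not say so. The extraction text in the labels describes kits of the kind used for bulk RNA.

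Cells were kept at 1000 or more UMIs, 500 or more genes and at most 20% mitochondrial UMIs. UMIs were summed and scaled to CPM, and log2 ratios use CPM + 1, which understates low genes. Cells were classed after 1 thinning without replacement to 10000 UMIs, and levels use all UMIs of the classed cells. No doublet caller was run, so doublets remain; an alternative left out cells above 2 times the median UMIs. With 1 library per group and cells that are not replicates, no test was run. A count of 0 allows a share of up to 0.0682% in the positive and 0.0785% in the negative library (3 counts). This limits cells with a UMI detected after thinning, and cells with few transcripts can be missed at that depth.

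The members and the 17 gene lists were chosen with earlier results of these data known. Named genes are the members, the axis genes, Krt7 and S100a10, the 2 members of a list with the largest absolute log2 ratio among those past the filter on low values, and the 5 genes most like each member; the genes named for keratin-high cells were picked with their values in view. The fold rule was tested on simulated data. Alternatives changed scaling (including TMM from edgeR 4.0.16), pseudocount, thresholds, cell filter, thinning, seed and axis genes. Leaving out keratin-high cells, or the 1 of them with most UMIs of a gene, was added after the data were seen. The scripts ran under Python 3.11.15 (pandas 2.3.3, scipy 1.17.1, numpy 2.4.6) and R 4.3.3.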

Additional observations from a re-analysis of the deposited data

How the results depend on the processing

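No paired analysis was possible because there is a single library for either reporter state, whose replicate number is only a name, and no replicate could be left out. Of 455 alternative values of single genes, 315 moved by less than their counting interval, 138 moved further and 2 changed direction after a call. Those 2 were Krt8 (-0.49) and Krt18 (-0.60) in hypoxia-high cells of the positive library when cells were classed after thinning to 5000 UMIs; the cause was not tested. Between the libraries 2 genes were past the fold, and 1 at a fold of 4 or without cells of 5 or more keratin UMIs. In endoderm-high cells 2 genes became 1 with Gata6 alone, where Krt18 was lost, or at a fold of 4 (positive library), and 1 at a fold of 4 (negative library), and 3 in both at a fold of 1.5, where Anxa2 was gained. In the negative library the count stayed at 2 among cells at 0 for hypoxia, but Krt18 (0.97) was lost and Anxa2 (1.79) gained, and Anxa2 (1.12) was also gained with Dab2 alone. In hypoxia-high cells of the negative library Krt8 (1.18) was gained when high began at 5 UMIs. Its direction there changed in 4 of 14 alternatives. In the class of 3 to 9 hypoxia UMIs it had 126 UMIs, and 64 without the 1 keratin-high cell. The part of that cell in the gain was not tested. In hypoxia-high cells of the positive library 3 genes became 1 when high began at 5 UMIs, after thinning to 5000 UMIs, and without cells of 10 or more or of 5 or more keratin UMIs, and 2 among cells at 0 for endoderm, where Krt18 (0.83) was lost. Anxa2 kept its direction in hypoxia-high cells in every alternative run, with log2 ratios of 1.63 to 2.39 and 2.87 to 3.63, as did Krt8 in endoderm-high cells, with 1.35 to 2.59 and 2.34 to 3.11. Classes that began at 10 hypoxia UMIs (18 and 14 cells) or used Ndrg1 alone (8 and 6 cells) were not run, being under 50 cells.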
